A study of Mus musculus with 2 samples.

Results

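Adipocyte nuclei from mouse aorta (ascending part and arch) that carried only 1 of the 2 lineage reporters were compared: GFP-only against tdTomato-only, separately in brown and in white adipocyte nuclei. They were chosen by their UMI counts of 11 adipocyte genes and of the reporters. A barcode with at least 300 genes was taken as an adipocyte when Adipoq, Plin1 and Plin4 (adiponectin and 2 lipid droplet coat proteins) gave at least 2 UMIs together. It was called brown when Ucp1, Cidea, Ppara and Ppargc1b summed to at least 5 UMIs and to more than the white sum, and white when Cyp2e1, Retn, Trhde and Slc7a10 summed to at least 5 UMIs and to more than the brown sum. GFP-only nuclei had at least 1 GFP UMI and 0 of tdTomato, and tdTomato-only nuclei the reverse. In all, 1393 nuclei met the rule, 627 of the Female and 766 of the Male library, out of 39516 barcodes with at least 300 genes. Among them were 243 GFP-only and 232 tdTomato-only brown nuclei in the Female library and 212 and 275 in the Male library. White nuclei were fewer, with 73 and 79 in the Female and 121 and 158 in the Male library.

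All animals were Wnt1-Cre; Rosa26-mTmG mice, with no further treatment named, and tissue was pooled by sex into the 2 libraries before nuclei were isolated for droplet single-nucleus RNA sequencing. Wnt1-Cre is active in the dorsal neural tube and neural crest of the embryo. The mTmG allele gives membrane tdTomato in every cell until Cre removes that cassette, after which the cell and its descendants give membrane GFP. GFP is thus a mark of descent from a Wnt1-Cre cell, kept whether or not Wnt1 is on in the adult. Neural crest contributes smooth muscle to the ascending aorta and arch, while most other cells of the vessel, among them its endothelium, come from other sources. Fat around the vessel is commonly a mix of brown adipocytes, which burn lipid through Ucp1, and white adipocytes, which store it. The contrast therefore asks whether fat cells of the same kind differ with their origin. Neither library used here lacks Cre, and the 2 sides of each comparison were not dissected or sorted apart but came from the same pools.

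The matrices hold 18872 barcodes with 79294181 UMIs (Female) and 20659 barcodes with 77989549 UMIs (Male). Each adipocyte class was summed per library and reporter side, giving 4 sums of 1783157 to 2250556 UMIs for brown and of 534984 to 1242775 UMIs for white nuclei. Per nucleus, the brown sides had like depth (medians of 7893 to 8273 UMIs over the 4 groups). White GFP-only nuclei were shallower than tdTomato-only nuclei, with medians of 6187 against 7839 UMIs in the Female and 6804 against 7506.5 in the Male library. The libraries shared 4287 barcode sequences, and results without them are given for the counts of calls and for some of the genes. Each library is 1 pool, split into 2 technical replicates that the files do not keep apart. The p-values rest on the spread between these sums, taken as a trend over genes, and do not measure the spread between animals.

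GFP-only nuclei were found in both classes, at larger shares than among endothelial or macrophage nuclei. These values chose the nuclei and are given as a description. GFP-only nuclei made up 19.8% of brown nuclei in the Female library (exact Clopper-Pearson 95% interval 17.6 to 22.2) and 23.8% in the Male library (21.1 to 26.8), and 18.7% (15.0 to 22.9) and 21.5% (18.1 to 25.1) of white nuclei. Endothelial nuclei gave 5.11% and 5.82% at median depths of 3184.5 and 3087 UMIs, against 7378 and 7599 UMIs in brown nuclei. When each nucleus was thinned to 1000 UMIs, GFP-only shares were 6.97% and 7.33% in brown, 8.74% and 8.62% in white, 4.15% and 3.95% in endothelial and 3.17% and 3.03% in macrophage nuclei. Intervals here cover counting error only.

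Among nuclei with a single reporter, GFP made up 51.2% (46.6 to 55.7) of brown nuclei in the Female and 43.5% (39.1 to 48.1) in the Male library. White nuclei gave 48.0% (39.9 to 56.3) and 43.4% (37.5 to 49.4). These shares lay between smooth muscle nuclei (58.5% and 60.9%) and macrophage nuclei (19.5% and 20%), and endothelial nuclei were lowest (10.5% and 12.1%). Schwann nuclei, which descend from the neural crest, were few: 10 of 19 in the Female library were GFP-only and 0 tdTomato-only (interval up to 17.6%), and 6 of 16 and 1 of 16 in the Male library. Summed over all nuclei of a class, GFP stood at 76.1 and 78.3 CPM (a gene's UMIs normalised to the total of its sum) in brown and 97.8 and 83.9 CPM in white nuclei. Endothelial nuclei had 57.7 and 58.8 CPM of GFP.

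**Figure D1:**
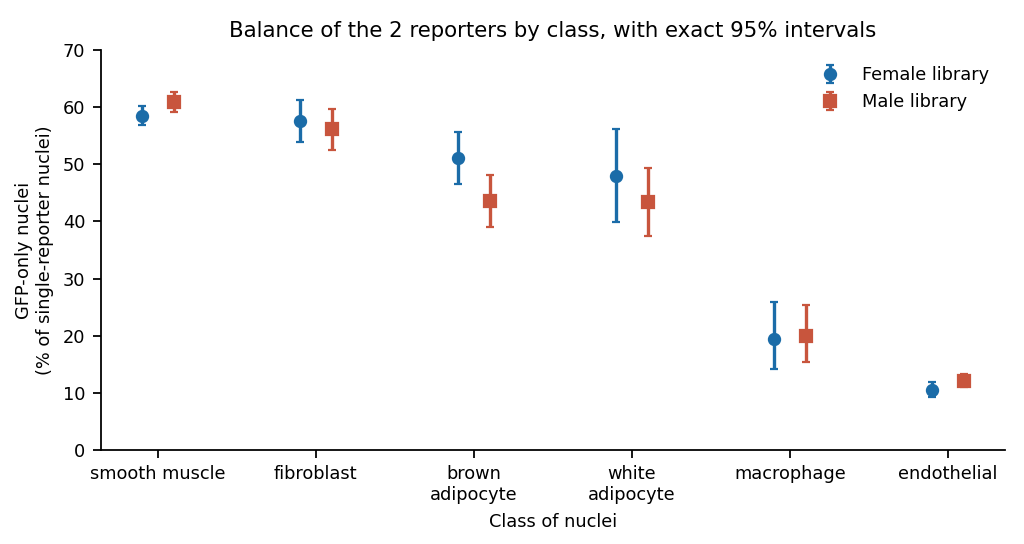
Share of GFP-only nuclei among nuclei with a single reporter (vertical axis, percent) by class of nuclei, with 1 point per library and exact 95% intervals as bars. Brown and white adipocyte nuclei sit between 43.4% and 51.2%, below smooth muscle and fibroblast nuclei and above macrophage and endothelial nuclei.

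A reporter side is a call from few molecules. In the Female library 139 of 243 GFP-only brown nuclei had exactly 1 GFP UMI, and in the Male library 111 of 212, while 147 of 232 and 146 of 275 tdTomato-only brown nuclei had 1 tdTomato UMI. Nuclei with both reporters made up 12.5% and 12.8% of brown and 13.8% and 15.6% of white nuclei. Doublet calls were more frequent among them than among GFP-only nuclei in each class and library (20.9% against 12.8% and 31.6% against 16.0% in brown, 18.5% against 4.11% and 40.9% against 13.2% in white). Nuclei with neither reporter were 48.7% and 32.4% of brown and 47.2% and 34.9% of white nuclei. At the edge of the rule, 38 brown nuclei had a brown sum of 5 and 42 barcodes left out had 4; of these, 8 and 12 were GFP-only and 5 and 9 tdTomato-only.

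Both sides carried the genes of their class, which the rule used. Brown sums held 163 to 271 CPM of Ucp1, the uncoupling protein of brown fat, against 0 to 9.15 CPM in white sums. White sums held 1307 to 2924 CPM of Cyp2e1 and 260 to 529 CPM of Retn (resistin), against 305 to 551 and 28.0 to 59.3 CPM in brown sums. Pparg, the regulator of fat cell differentiation, was not used by the rule and stood at 2289 to 4171 CPM over all 8 sums, against 34.7 to 37.5 CPM in smooth muscle nuclei.

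In brown adipocyte nuclei, GFP-only nuclei had less RNA of Zfhx4, of Acsm3 and of enzymes that make fatty acids, and more of Epha3, Ccbe1 and Nr4a1. They had more of a large set of genes, Epha3 among them, that are more abundant in smooth muscle than in brown nuclei. In all, 197 of 10999 genes passed an adjusted p of 0.05 in edgeR's quasi-likelihood test with library as a block, or 1.79% of those tested. GFP-only nuclei were higher for 146 (1.33%) and lower for 51 (0.464%), and 194 of the 197 differed the same way in both libraries. In white adipocyte nuclei 40 of 8124 genes passed (0.492%), 30 higher (0.369%) and 10 lower (0.123%), 38 of them the same way in both libraries. Of the genes called, 22 were called the same way in both classes and 0 in opposite ways. That is 22 of 197 in brown and 22 of 40 in white. All of the 22 except Zfhx4, Acsm3 and H2-Q10 were more abundant in smooth muscle nuclei than in either adipocyte class. Of the 22, Ptprz1 in brown and Thsd4 in white nuclei differed in opposite ways between the libraries. The classes are different nuclei of the same libraries. The calls rest on a spread borrowed across genes, since 4 sums leave 1 residual degree of freedom. DESeq2 with the same model called 9 genes in brown and 1 in white.

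Zfhx4, which encodes a large zinc finger and homeodomain protein, was lower in GFP-only nuclei of both classes. In brown nuclei it stood at 119 CPM in GFP-only and 257 CPM in tdTomato-only nuclei of the Female library, and at 92.5 and 270 CPM in the Male library. White nuclei gave 135 against 258 CPM in the Female and 37.7 against 179 CPM in the Male library. Both GFP-only sums lay below both tdTomato-only sums in each class. The log2 fold change was -1.32 ± 0.12 (SE) in brown (adjusted p = 6.82e-26) and -1.52 ± 0.20 in white nuclei (adjusted p = 1.29e-10). Its UMIs were spread over 478 brown and 159 white nuclei, with at most 1.12% and 4.01% in any 1 nucleus. DESeq2 also called it in brown (adjusted p = 1.34e-05) but not in white nuclei (0.314), where the log2 fold change was -0.91 without the Male and -2.11 without the Female library.

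Nuclei in the other reporter states lay nearer to the tdTomato-only side for Zfhx4 in brown nuclei. Those with both reporters held 228 and 207 CPM and those with neither 209 and 225 CPM. In white nuclei these states gave 141 and 142 CPM and 188 and 89.8 CPM, between the GFP-only and tdTomato-only sums of their library. The gene (ENSMUSG00000025255) spans chr3:5218526-5415857 on the plus strand of GRCm38 and overlaps no protein-coding gene. The counts do not separate exonic from intronic reads. The same contrast was run in other types, where the shares of genes called higher and lower in GFP-only nuclei were 2.49% and 5.13% in fibroblast, 1.32% and 0.495% in endothelial, 1.68% and 2.08% in smooth muscle and 0.0508% and 0.0169% in macrophage nuclei. In fibroblast nuclei Zfhx4 was also lower on the GFP-only side (log2 fold change -1.15 ± 0.18, adjusted p = 1.29e-08). Smooth muscle nuclei gave -0.75 ± 0.21 (adjusted p = 0.0571) and endothelial nuclei -0.0015 ± 0.26 (adjusted p = 0.9996).

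Epha3, an ephrin receptor that guides cells in the embryo, went the other way. Brown GFP-only nuclei had 83.9 and 103 CPM in the Female and Male libraries and tdTomato-only nuclei 33.3 and 29.3 CPM. White GFP-only nuclei had 87.9 and 60.6 CPM and tdTomato-only nuclei 15.1 and 28.2 CPM. GFP-only sums were higher in each library and class, with no overlap. The log2 fold change was 1.57 ± 0.19 in brown (adjusted p = 3.61e-14) and 1.64 ± 0.32 in white nuclei (adjusted p = 0.000304). Nuclei with both reporters had 51.0 and 36.5 CPM in brown and 34.7 and 50.6 CPM in white. Epha3 lies at chr16:63543534-63864175 on the minus strand. It is also more abundant in smooth muscle (200 and 123 CPM) and fibroblast nuclei (603 and 406 CPM) than in adipocyte nuclei, and in fibroblast nuclei it was higher on the GFP-only side (1.05 ± 0.15, adjusted p = 1.59e-09). Endothelial nuclei also differed (1.66 ± 0.24, adjusted p = 3.58e-09), while smooth muscle nuclei gave -0.12 ± 0.06 (adjusted p = 0.404). Without nuclei of 2 or more smooth muscle UMIs the log2 fold change of Epha3 was 1.08 in brown (adjusted p = 0.0126) and 1.79 in white nuclei, where the call was lost (adjusted p = 0.333). Without those of 10 or more it was 1.82 (adjusted p = 6.89e-06) and 1.89 (adjusted p = 0.000295), and without the Female library the white value was 0.98.

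Acsm3, which encodes a mitochondrial acyl-CoA synthetase for medium-chain fatty acids, was lower in GFP-only nuclei of both classes and more so in white. White GFP-only nuclei had 112 and 40.0 CPM, and tdTomato-only nuclei 303 and 219 CPM, in the Female and Male libraries. Brown GFP-only nuclei had 118 and 131 CPM, against 177 and 227 CPM. No GFP-only sum reached a tdTomato-only sum of its class. The log2 fold change was -1.90 ± 0.20 in white (adjusted p = 7.87e-18) and -0.70 ± 0.12 in brown nuclei (adjusted p = 1.24e-06), and the gap between the classes passed its own test (1.21 ± 0.24, adjusted p = 0.0322). That difference was not called with at least 100 UMIs per gene, with at least 2 reporter UMIs or with at most 2 UMIs per nucleus and gene. Acsm3 was the single gene that DESeq2 called in white nuclei (adjusted p = 0.00338). Smooth muscle and fibroblast nuclei had 0.543 to 3.28 CPM of Acsm3. It overlaps the protein-coding gene Eri2, and reads of the 2 cannot be told apart if strand was not used in counting.

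H2-Q10, a class Ib histocompatibility gene, was also lower on the GFP-only side. Brown GFP-only nuclei had 34.2 and 43.7 CPM against 63.5 and 61.3 CPM, and white nuclei 63.6 and 33.2 CPM against 125 and 81.3 CPM. The groups did not overlap in either class. The log2 fold change was -0.69 ± 0.19 in brown (adjusted p = 0.0238) and -1.13 ± 0.26 in white nuclei (adjusted p = 0.00602). Genes of this family are near-identical, so its counts are uncertain. The brown call held in 5 of 17 alternatives and the white call in 9 of 16. Without barcodes found in both libraries the values were -0.59 (adjusted p = 0.336) and -0.75 (adjusted p = 0.879), and without nuclei of 2 or more smooth muscle UMIs -0.25 (adjusted p = 0.943) and -1.81 (adjusted p = 0.0267).

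**Figure D2:**
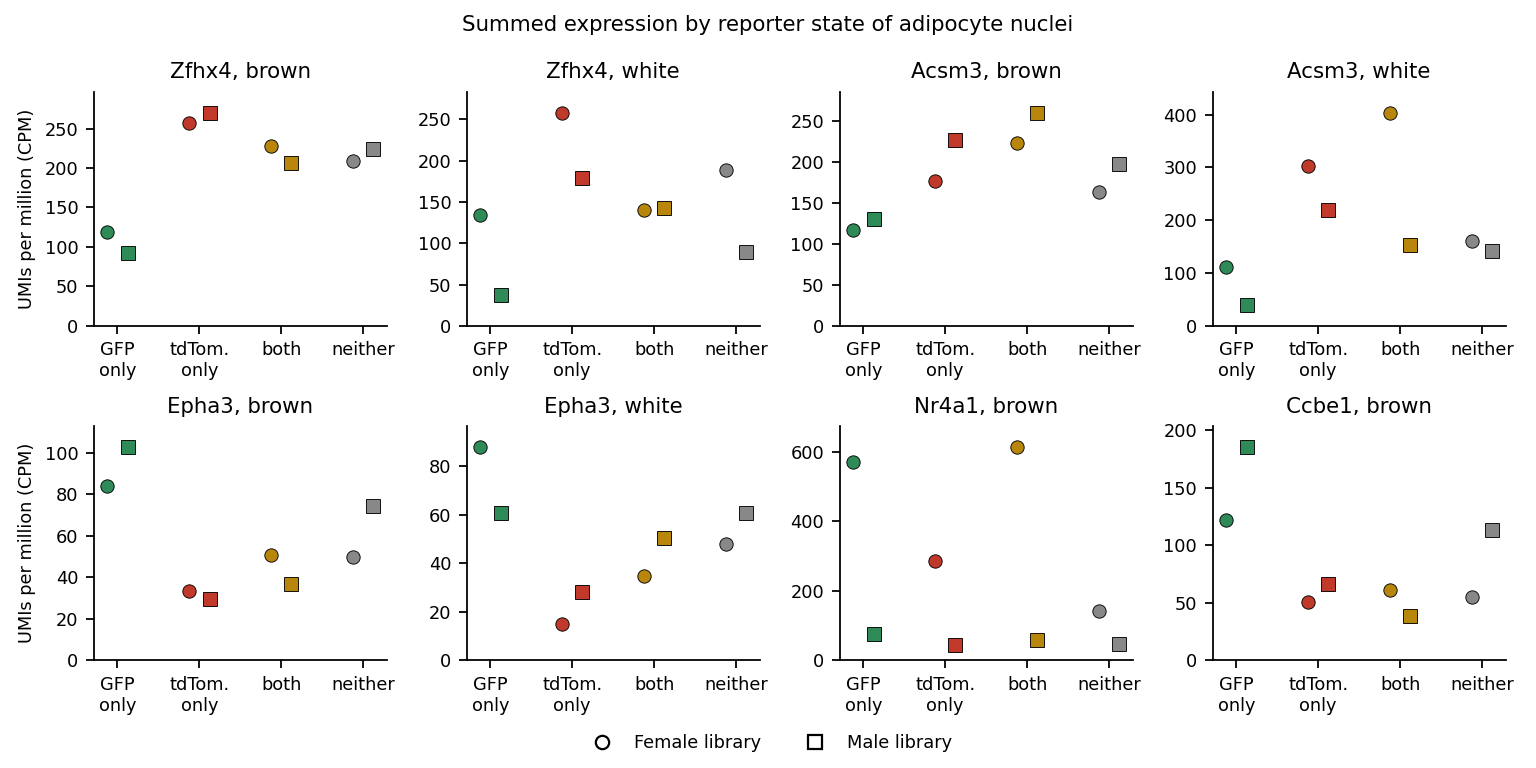
Summed expression in CPM (vertical axes, each from 0) of Zfhx4, Acsm3, Epha3, Nr4a1 and Ccbe1 in brown or white adipocyte nuclei, by reporter state; circles are the Female and squares the Male library. For Zfhx4 and Acsm3 the GFP-only points are the lowest in both libraries within each panel, and for Epha3 in brown nuclei both GFP-only points (83.9 and 103 CPM) lie above all others.

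In brown nuclei, genes of fatty acid synthesis were lower on the GFP-only side. This pathway turns citrate and acetate into acetyl-CoA, then malonyl-CoA and palmitate, and lengthens and desaturates the product. Of 20 listed genes, all tested, 8 were called lower in GFP-only nuclei and 0 higher, against 0.464% and 1.33% of all genes, and 18 of 20 had a log2 fold change below 0. The median was -0.20, beside -0.01 over all genes tested. The list was chosen with earlier results of these data known, so these counts are a description. In white nuclei 0 of the same 20 genes were called, beside 0.492% of all genes tested. An unadjusted p under 0.05 was reached by 1 of the 20, beside 426 of all 8124 genes. DESeq2 called 0, and the median was 0.02.

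Fasn, the fatty acid synthase, had 1322 CPM in GFP-only and 1819 CPM in tdTomato-only brown nuclei of the Female library and 1036 and 1239 CPM in the Male library. The log2 fold change was -0.36 ± 0.06 (adjusted p = 1.31e-06). Each library differed the same way, while the Female GFP-only sum lay above the Male tdTomato-only sum. Scd1, which desaturates stearate, had 1406 against 1660 CPM and 1827 against 2442 CPM (-0.33 ± 0.06, adjusted p = 2.36e-06). Me1, the malic enzyme that supplies NADPH, had 746 against 968 CPM and 183 against 262 CPM (-0.44 ± 0.08, adjusted p = 1.60e-05). For Scd1 and Me1 too, the step between libraries was larger than the step between reporters.

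The other 5 called genes were the elongase Elovl5 (-0.49 ± 0.13), the citrate lyase Acly (-0.34 ± 0.06), the acetyl-CoA synthetase Acss2 (-0.30 ± 0.07), the glucose-sensing transcription factor Mlxipl (-0.27 ± 0.06) and the acetyl-CoA carboxylase Acaca (-0.19 ± 0.05). Adjusted p ran from 1.10e-05 for Acly to 0.00991 for Elovl5. Values of genes of the list that did not pass included -0.16 ± 0.09 for Srebf1, a regulator of the pathway, and 0.04 ± 0.06 for Dgat2, which makes triglyceride. Acss2 overlaps the protein-coding genes Ggt7 and Gss. Pnpla3 and Insig1, chosen after their values were seen, were also lower: the lipid droplet protein Pnpla3 (-0.37 ± 0.06, adjusted p = 2.86e-06) and the sterol sensor Insig1 (-0.56 ± 0.16, adjusted p = 0.0307). The Pnpla3 call held in 12 of 17 alternatives and the Insig1 call in 5 of 17.

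In white nuclei Fasn stood at 2613 and 2580 CPM in the Female library and at 1427 and 1370 CPM in the Male library on the GFP-only and tdTomato-only sides (0.04 ± 0.10, adjusted p = 0.999). The difference of this contrast between brown and white nuclei did not pass for any of the 8 genes; for Fasn it was -0.40 ± 0.12 (adjusted p = 0.423) and for Scd1 -0.40 ± 0.11 (adjusted p = 0.379). Brown nuclei with neither reporter had 2032 and 1305 CPM of Fasn and those with both 1127 and 1193 CPM. All 8 genes stayed below 0 in brown nuclei under each alternative run, but the calls did not hold throughout. None was called by DESeq2, none without the library block, none with each nucleus giving at most 2 UMIs of a gene, none without nuclei of 2 or more, or of 10 or more, smooth muscle UMIs, and 2 without barcodes found in both libraries. The cut at 2 UMIs left 112 GFP-only and 121 tdTomato-only brown nuclei in the Female and 125 and 145 in the Male library. The cut at 10 UMIs left 217 and 214 in the Female and 192 and 261 in the Male library. Without nuclei of 2 or more smooth muscle UMIs Fasn gave -0.20, Scd1 -0.15, Me1 -0.14 and Acly -0.06, and the median of the list was -0.0895.

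**Figure D3:**
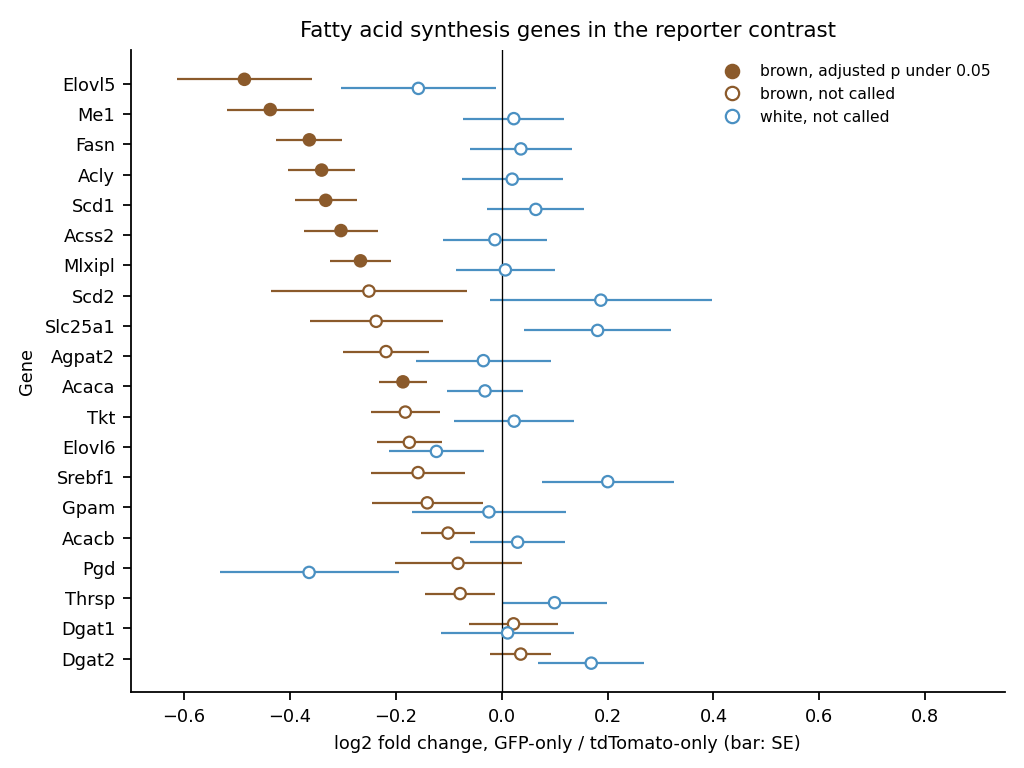
Log2 fold change of GFP-only over tdTomato-only nuclei (horizontal axis, bars are SE) for the 20 fatty acid synthesis genes, in brown and white adipocyte nuclei. Filled points passed an adjusted p of 0.05: 8 brown genes, all below 0, and no white gene.

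Since these genes moved together, their promoters were searched for 3 motifs in RefSeq's windows of 300 bases (250 before and 50 after the start, GRCm38.p6), which covered 16 of the 20 genes. The CCAAT box (CCAAT, either strand) was in 12 of the 16, against 37.4% of 32851 mouse promoters. Of the 8 called genes, 6 had a match: Fasn, Acly, Elovl5, Me1, Mlxipl and Acss2. Acaca had a window without a match, and Scd1 had no window and was not searched. The E-box CACGTG, its own reverse complement, was in 3 of the 16, against 7.15%, and among the called genes in Elovl5 and Mlxipl. The sterol response element TCACNCCAC was in 1, at another start of Mlxipl, against 1.24%. A gene with several starts was counted once if any window matched, while the shares over the genome are per window. In the Fasn window 2 of the 3 CCAAT matches, on opposite strands, overlap each other. Matches describe the letters and are no evidence of binding. Shown are Fasn, at chr11:120824498-120824797 on the minus strand, as the gene of the pathway's central enzyme, and Mlxipl, at chr5:135089640-135089939 on the plus strand, as the called regulator. Capitals mark CCAAT or its complement ATTGG in both, and the E-box in Mlxipl.
Fasn: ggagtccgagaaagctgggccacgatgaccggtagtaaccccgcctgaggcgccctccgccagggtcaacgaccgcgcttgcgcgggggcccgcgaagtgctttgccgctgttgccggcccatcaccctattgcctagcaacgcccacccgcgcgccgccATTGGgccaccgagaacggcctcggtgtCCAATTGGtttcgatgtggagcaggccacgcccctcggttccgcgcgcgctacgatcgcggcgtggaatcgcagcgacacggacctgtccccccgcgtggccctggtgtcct
Mlxipl: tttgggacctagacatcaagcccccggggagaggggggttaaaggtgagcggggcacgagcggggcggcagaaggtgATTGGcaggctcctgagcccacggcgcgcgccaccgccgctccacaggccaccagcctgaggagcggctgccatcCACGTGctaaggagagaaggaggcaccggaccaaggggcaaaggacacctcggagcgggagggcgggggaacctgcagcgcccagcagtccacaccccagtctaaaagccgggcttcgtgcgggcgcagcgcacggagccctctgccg

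Other genes of brown nuclei differed outside these groups. Ccbe1, a secreted protein known from lymphatic growth and chosen after its values were seen, had 122 and 185 CPM in GFP-only and 50.4 and 66.7 CPM in tdTomato-only nuclei of the Female and Male libraries. The GFP-only sums were higher, with no overlap (log2 fold change 1.38 ± 0.15, adjusted p = 2.64e-17). White nuclei had too few UMIs of Ccbe1 for the test. Smooth muscle nuclei had 13.03 and 28.8 CPM of it and fibroblast nuclei 802 and 892 CPM.

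Nr4a1, a nuclear receptor induced as an immediate early gene, had 572 against 286 CPM in the Female and 74.6 against 42.7 CPM in the Male library. GFP-only nuclei were higher in each, and the libraries differed more than the sides (0.94 ± 0.11, adjusted p = 8.50e-14). Nuclei with both reporters had 612 and 58.1 CPM and those with neither 143 and 47.6 CPM. It was the single call among the 9 immediate early genes tested, beside 1.33% of all genes called higher. All 9 had log2 fold changes above 0 (median 0.27). Egr1, of the same list, gave 0.49 ± 0.24 (adjusted p = 0.583). White nuclei gave 0.48 ± 0.40 for Nr4a1 (adjusted p = 0.999).

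Fgf10, a growth factor of mesenchyme and fat development chosen after its values were seen, had 31.4 against 23.4 CPM and 69.0 against 23.5 CPM in brown nuclei (1.05 ± 0.23, adjusted p = 0.00044). Without the Male library the value was 0.36. White nuclei gave 0.66 ± 0.22 (adjusted p = 0.280), and fibroblast nuclei 1.14 ± 0.17 (adjusted p = 6.21e-09). The brown Fgf10 call was lost in 4 of 16 alternatives: by DESeq2, without the library block, with at least 2 reporter UMIs (1.34, adjusted p = 0.166) and without nuclei of 2 or more fibroblast UMIs (0.95, adjusted p = 0.111).

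Genes lower on the GFP-only side included Dnajc12, a co-chaperone, with 28.6 against 64.0 CPM and 19.1 against 91.1 CPM (-1.67 ± 0.20, adjusted p = 2.13e-13). Its call was lost when each nucleus gave at most 2 UMIs (adjusted p = 0.769), and its UMIs came from 68 nuclei. Its white sums went opposite ways in the 2 libraries. Slc2a5, the fructose transporter, had 16.9 against 46.8 CPM and 10.7 against 26.2 CPM (-1.40 ± 0.27, adjusted p = 4.34e-05). St6galnac5, a sialyltransferase, had 35.1 against 45.8 CPM and 11.2 against 76.4 CPM (-1.38 ± 0.22, adjusted p = 7.12e-08). Slc2a5 and St6galnac5 were chosen after their values were seen, and St6galnac5 overlaps the protein-coding gene Pigk. The sides did not overlap for any of these 3 genes.

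Of 27 listed genes of the thermogenic programme 24 were tested in brown nuclei, with a median of 0.05. An unadjusted p under 0.05 was reached by 4 of them, beside 880 of all 10999 genes. A single gene, beside 1.33% of all genes tested, was called higher: Dio2, the deiodinase that makes active thyroid hormone, with 41.7 against 22.9 CPM and 63.4 against 38.7 CPM (0.78 ± 0.21, adjusted p = 0.016). Each library was higher on the GFP-only side. Without the nuclei of 2 or more smooth muscle UMIs and in 9 other alternatives the call was lost. Prdm16, a determinant of brown fat, gave -0.03 ± 0.07 and Ppargc1a 0.15 ± 0.10 in brown nuclei. In white nuclei 1 of 18 genes was called higher, beside 0.369% of all genes tested: Esrrg, an orphan nuclear receptor abundant in brown nuclei, with 176 against 70.8 CPM and 92.6 against 57.1 CPM (0.99 ± 0.23, adjusted p = 0.00602). The Esrrg call was lost in 8 of 16 alternatives, with a value of 0.40 without nuclei of 2 or more smooth muscle UMIs and of 0.65 without the Female library. Esrrg was also higher on the GFP-only side in fibroblast (1.82 ± 0.16, adjusted p = 3.69e-23) and smooth muscle nuclei (1.30 ± 0.14, adjusted p = 5.43e-06).

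None of 21 genes of lipid uptake, storage and lipolysis was called in either class, and 0 by DESeq2. An unadjusted p under 0.05 in edgeR was reached by 4 in brown and 0 in white nuclei. Over all genes tested, 1.79% were called in brown and 0.492% in white nuclei. Unadjusted p was under 0.05 for 880 of 10999 and 426 of 8124 genes. At such shares, 0 calls do not set apart a list as short as these. Pparg gave 0.03 ± 0.05 in brown and -0.14 ± 0.09 in white nuclei, the lipoprotein lipase Lpl -0.0044 ± 0.06 and -0.19 ± 0.10. None of 15 adipokine and receptor genes was called in either class (4 and 2 at an unadjusted p under 0.05, 0 by DESeq2). Transcription factors of position and origin were mostly too sparse to test: 8 of 34 Hox genes, 9 of 37 neural crest and arch factors and 8 of 26 mesoderm and heart field factors reached 50 UMIs in brown nuclei. None of these was called (2, 2 and 0 at an unadjusted p under 0.05, 0 by DESeq2), nor were the 4, 6 and 5 tested in white nuclei (0 at an unadjusted p under 0.05 in each list, 0 by DESeq2).

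The larger part of the genes higher in GFP-only nuclei were more abundant in smooth muscle nuclei than in the adipocyte class. Of the 146 in brown nuclei, 132 were more abundant in smooth muscle nuclei than in brown nuclei, and 24 of the 30 in white nuclei. This means that smooth muscle nuclei of both libraries lay above the whole adipocyte class, all reporter states together, of both libraries. Among genes lower in GFP-only nuclei the counts were 3 of 51 and 1 of 10. Of all genes tested, 3188 of 10999 in brown and 2191 of 8124 in white nuclei had that property. Myh11, the smooth muscle myosin heavy chain, had 432 against 309 CPM in the Female and 481 against 155 CPM in the Male library in brown nuclei (1.03 ± 0.09, adjusted p = 3.28e-25). White nuclei had 277 against 142 CPM and 371 against 133 CPM (1.25 ± 0.17, adjusted p = 2.07e-10). All 4 GFP-only sums were above their tdTomato-only partners, and none came near the 4873 and 5256 CPM of smooth muscle nuclei.

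Of 6 smooth muscle markers, 5 were called higher in brown (median 0.92) and 1 in white nuclei (median 0.95). Over all genes tested, 1.33% and 0.369% were called higher. The 6 together reached 992 against 765 CPM in the Female and 1129 against 398 CPM in the Male library in brown nuclei, and 579 against 381 CPM and 780 against 341 CPM in white nuclei. Nuclei rich in these UMIs held different shares of them by group. In brown nuclei of the Female library 26 GFP-only and 18 tdTomato-only nuclei had 10 or more UMIs of Myh11, Acta2, Tagln and Myocd, and 20 and 14 in the Male library. On the GFP-only side they held 1435 of 1849 and 1502 of 1791 such UMIs, and on the tdTomato-only side 912 of 1278 and 366 of 759. In white nuclei the counts were 153 of 276 and 450 of 595 on the GFP-only side and 114 of 225 and 181 of 375 on the tdTomato-only side. Without nuclei of 2 or more of these UMIs 70 genes were called in brown (14 higher, 56 lower; 23 of them among the 197) and 14 in white nuclei (3 higher, 11 lower; 5 of them among the 40), and Myh11 in brown was -0.18 (adjusted p = 0.984). Without nuclei of 10 or more of these UMIs the brown log2 fold change of Myh11 was 0.05 (adjusted p = 0.989), and 26 genes were called in brown (14 higher, 12 lower) and 17 in white nuclei (9 higher, 8 lower). Zfhx4, Epha3, Acsm3, Ccbe1, Nr4a1, Dnajc12, Slc2a5, St6galnac5 and Fgf10 were among the 26, and Zfhx4, Epha3, Acsm3 and H2-Q10 among the 17.

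**Figure D4:**
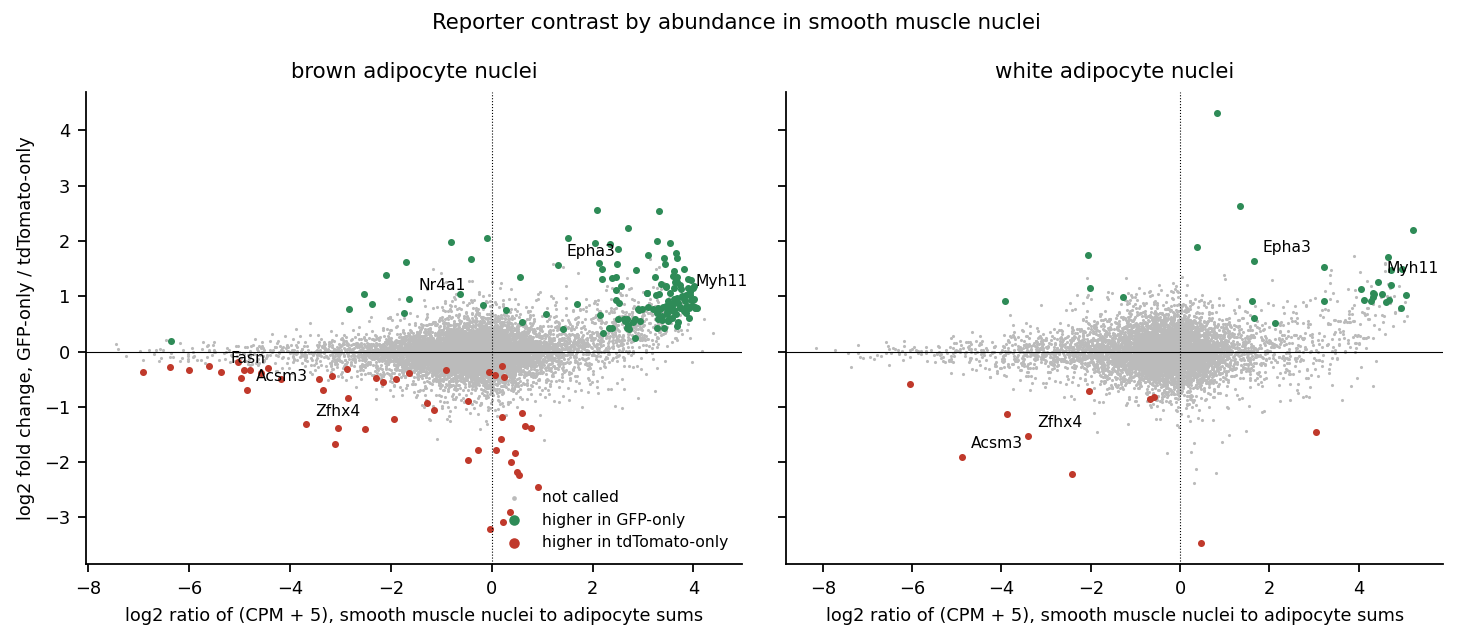
Log2 fold change of GFP-only over tdTomato-only nuclei (vertical axis) against the log2 ratio of CPM plus 5 in smooth muscle nuclei over the mean of the 4 adipocyte sums (horizontal axis), for each gene tested in brown and white adipocyte nuclei. Called genes higher in GFP-only nuclei gather at the right, where 132 of 146 in brown are more abundant in smooth muscle; Zfhx4 and Acsm3 lie at the left.

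Among genes more abundant in adipocyte nuclei than in smooth muscle, fibroblast, endothelial and macrophage nuclei, 3563 were tested in brown nuclei. For these the lower library of the whole class, all reporter states together, lay above the highest library of any other type. Of the 3563, 5 were called higher on the GFP-only side, Dio2 among them, and 27 lower, beside 1.33% and 0.464% of all genes tested, with a median of -0.02. Among the 27 were the 8 fatty acid genes, Zfhx4, Acsm3, H2-Q10 and Acsl5. Acsl5, an acyl-CoA synthetase chosen after its values were seen, gave -0.49 ± 0.11 (adjusted p = 0.00102). In white nuclei 5 of 2403 such genes were called lower, beside 0.123% of all genes tested: Zfhx4, Acsm3, H2-Q10, the scaffold gene Dlg2 and the gene model Gm16168.

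Markers of other cells moved less evenly. The 6 macrophage markers together stood at 6.56 and 8.97 CPM in GFP-only and 41.1 and 75.1 CPM in tdTomato-only brown nuclei, against 10860 and 11580 CPM in macrophage nuclei. Of the 6, F13a1 and Mrc1 reached 50 UMIs, which they did through the tdTomato-only side, so their direction is a description. F13a1 had 10 and 12 UMIs in GFP-only and 36 and 77 in tdTomato-only nuclei, and Mrc1 4 and 1 against 17 and 37. Several of the genes with the largest falls in brown nuclei, among them Dock2, Arhgap15, Mctp1 and Slc9a9, had 59 to 166 UMIs in the 4 sums, found in 19 to 38 nuclei. Of the 4 Schwann markers, Cdh19 alone reached 50 UMIs in brown nuclei, through the GFP-only side (51 and 32 UMIs against 25 and 4), while Sox10 was at 0 in all 8 sums. Fibroblast, endothelial and pericyte markers gave no call in either class (2, 2 and 1 at an unadjusted p under 0.05 in brown, 1, 1 and 0 in white nuclei, 0 by DESeq2). Over all genes tested, calls made up 1.79% in brown and 0.492% in white nuclei. In brown nuclei the fibroblast median was 0.35 (4 of 5 above 0), the pericyte median 0.71 (3 of 3 above 0) and the endothelial median -0.31 (5 of 6 below 0), and heart muscle markers together reached at most 3.74 CPM in any sum. The part of these other cells in the results was not tested.

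White nuclei had further calls on each side. Enpep, an aminopeptidase, had 11.2 against 84.4 CPM in the Female and 9.15 against 25.7 CPM in the Male library (-2.22 ± 0.44). It reached 50 UMIs through the tdTomato-only side, so its direction is a description. Of the Enpep UMIs, 14.7% came from 1 nucleus. Il15, a cytokine, had 125 against 40.7 CPM and 64.0 against 37.8 CPM (1.16 ± 0.27, adjusted p = 0.00856), with no overlap. The Il15 call was lost in 8 of 16 alternatives, and its value was 0.69 without the Female library. Il15 in brown nuclei gave 0.03 ± 0.20 (adjusted p = 0.996). The largest white values rest on single nuclei: 1 nucleus gave 87.1% of the UMIs of Rbfox1 (4.31 ± 0.46), 83.3% of Csmd1 (-3.46 ± 0.76) and 61.9% of Pcdh11x (2.64 ± 0.36).

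In brown nuclei the genes with the largest rises were likewise sparse. The 12 with the largest log2 fold changes among the calls ran from 1.74 for the channel gene Piezo2 to 2.54 for Sh3rf2, and each was found in 21 to 76 nuclei. Genes this sparse can reach 50 UMIs through the GFP-only side, and the direction of such genes is a description. This holds for Nrg1, a ligand of ErbB receptors, with 19.7 against 5.20 CPM and 22.4 against 4.89 CPM (2.05 ± 0.39). Of its UMIs, 38.8% were in 1 nucleus. Actn2, a muscle actinin, had 23.9 against 5.20 CPM and 39.3 against 12.4 CPM (1.85 ± 0.31, adjusted p = 5.67e-07). Of all 197 calls, 16 had over 20% of their UMIs in 1 nucleus, and 6 of the 40 in white nuclei. With each nucleus giving at most 2 UMIs of a gene, 12 genes were called in brown nuclei, among them Zfhx4, Acsm3, Epha3, Ccbe1, Nr4a1, Fgf10, Slc2a5, St6galnac5 and Actn2, and 3 in white nuclei, Zfhx4, Epha3 and Acsm3.

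The difference of the contrast between brown and white nuclei was tested in 1 fit of all 8 sums, where 9 of 11945 genes passed (0.0753%). Zfhx4 and Epha3 did not pass this test (differences of 0.19 ± 0.26 and -0.05 ± 0.37, adjusted p = 0.9999 for both), nor did H2-Q10 (0.45 ± 0.32, adjusted p = 0.9999). Missing this threshold does not show that the classes are alike for these genes. Of the 9 that passed, Cacna2d3, a calcium channel subunit chosen after its values were seen, had 110 against 45.2 CPM and 57.8 against 27.5 CPM in brown nuclei (1.19, adjusted p = 5.65e-08), while white nuclei gave -0.82 (adjusted p = 0.510). Its difference between the classes was 2.005 ± 0.34 (adjusted p = 0.004).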

How the data were processed

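Nuclei of 1 Female and 1 Male library were measured by droplet single-nucleus RNA sequencing. The deposited matrices hold whole-number UMI counts per gene and barcode, not normalized, and name Cell Ranger 7.0.0 per the file headers; GRCm38, STAR, Cell Ranger and Seurat 4.4.0 are named, with no role given, per the submitters' processing notes. Members and gene lists were chosen with earlier results of these data known. Counts of member nuclei were summed per library, class and reporter side. Genes with at least 50 UMIs over the 4 sums of a class, without the reporters and the 11 genes of the class rule, were fitted with edgeR 4.0.16 (quasi-likelihood, TMM, library as a block, Benjamini-Hochberg threshold of 0.05) in R 4.3.3. With 1 residual degree of freedom the prior degrees of freedom were infinite, so errors follow the trend over genes and not each gene's own spread. The SE is the absolute log2 fold change divided by the square root of F. The classes were compared by an interaction term over 8 sums. The pairing is by library: both sides of a library are nuclei of the same pool. Doublet calls (scrublet in scanpy 1.11.5, expected rate 0.08) were kept in the main sums and left out in an alternative. Positions come from the GRCm38 annotation, which matched 54723 of 54754 identifiers; promoters are RefSeq's.

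Named genes were up to 12 each way with the largest log2 fold change among calls of 1 direction in both libraries, without gene models; up to 10 called in both classes; and for each list up to 4 of the highest mean CPM plus those called. Genes outside this rule, among them Acsl5, Srebf1, Ppargc1a, Thsd4 and Tmtc2, were chosen after their values were seen. Alternatives were DESeq2 1.42.0, other scalings and filters, no block, 1 library left out, and nuclei left out by doublet call, reporter UMIs, class threshold, smooth muscle or fibroblast UMIs, or barcode; those with 10 or more smooth muscle UMIs left out, and with at most 2 UMIs per nucleus and gene, were chosen after seeing the data. The sex of a library, its pool and its processing cannot be told apart. Some items are not reported here.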

Additional observations from a re-analysis of the deposited data

Results flagged for a closer look

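The reporter contrast (log2 fold change, GFP-only over tdTomato-only) differed between brown and white nuclei for 9 genes by the interaction test in edgeR. The difference, brown minus white, was 1.21 for Acsm3 (adjusted p = 0.0322), 2.005 for Cacna2d3, 2.92 for Ccbe1 (adjusted p = 0.0390) and 0.87 for Rbms3 (adjusted p = 0.04997). It was -0.92 for Esrrg (adjusted p = 0.0463), -3.11 for Iigp1, -4.10 for Rbfox1, -5.71 for Sema3a and -6.22 for Tox. Rbfox1 had 87.1% of its white UMIs in 1 nucleus and Sema3a 29.7%, and Iigp1 and Tox had 43.8% and 35.1% of their brown UMIs in 1 nucleus. Ccbe1 and Rbms3 were chosen after their values were seen. White nuclei had too few UMIs of Ccbe1 for a test of their own, so this gene entered the fit through brown nuclei. None of the 9 passed with each nucleus giving at most 2 UMIs of a gene (0 called, 495 at an unadjusted p under 0.05).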

How the results depend on the processing

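The 197 brown and 40 white calls depend on the model. DESeq2 called 9 and 1, and the fit with no replicate block (library left out of the model) called 0 and 0, with 307 and 131 genes at an unadjusted p under 0.05. Brown calls numbered 94 in 1 fit with white nuclei, 77 without doublet calls, 78 with at least 2 reporter UMIs, 70 without nuclei of 2 or more smooth muscle UMIs (14 higher, 56 lower), 53 without those of 2 or more fibroblast UMIs, 13 with thinned nuclei, 88 without shared barcodes, 26 without nuclei of 10 or more smooth muscle UMIs and 12 with at most 2 UMIs per nucleus and gene. White calls numbered 12 with at least 100 UMIs per gene, 12 without doublet calls, 26 with stricter class thresholds, and 14, 7, 2, 21, 17 and 3 under the last 6 of these settings in the same order. Leaving out 1 library leaves no spread to test, so genes were counted by size alone. In the kept library, 96 to 154 genes in brown and 129 to 366 in white had a log2 ratio of at least 1 either way. The ratio was taken with 5 CPM added to each side, and these counts are not calls. Calls for the difference between classes, 9, became 20 with at least 20 UMIs per gene, 3 with at least 100, 0 with at least 2 reporter UMIs (459 at an unadjusted p under 0.05), 5 without nuclei of 10 or more smooth muscle UMIs and 0 with at most 2 UMIs per nucleus.

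Without nuclei of 2 or more smooth muscle UMIs the brown median was -0.0895 for fatty acid synthesis and -0.18 for smooth muscle markers, and the white smooth muscle value, of 1 gene, was 0.56. In the same setting brown Myh11 turned to -0.18, Tagln to -0.19, Dmd to -0.16, Rcan2 to -1.01, Thsd4 to -0.76 and Tmtc2 to -0.0055, and white Tmtc2 to -0.095. Rcan2 in white was -0.28 without doublet calls and -0.071 without nuclei of 10 or more smooth muscle UMIs. Ptprz1 in brown ranged from -0.013 without the Male to 2.16 without the Female library, and Thsd4 in white from -0.30 to 1.43. This removal picks nuclei by genes that differ between the sides. GFP-only shares with at least 2 reporter UMIs were 8.49% and 11.4% in brown and 9.23% and 10.6% in white, and thinned ones 6.97%, 7.33%, 8.74% and 8.62%. Zfhx4 ranged from -1.76 to -1.17 in brown and from -2.39 to -1.38 in white over the alternatives that keep both libraries, Epha3 from 1.08 to 2.21 and from 1.58 to 2.79, and Acsm3 in white from -2.45 to -1.31. With 1 library left out Zfhx4 ranged from -1.49 to -1.08 and from -2.11 to -0.91, Epha3 from 1.22 to 1.65 and from 0.98 to 2.21, and Acsm3 in white from -2.31 to -1.39. Zfhx4 in brown and Acsm3 in white lost their call in the fit with no replicate block alone, out of 17 alternatives that keep both libraries. Calls lost without shared barcodes included those of Insig1, Acsl5 and Nrg1 in brown and of Il15 in white nuclei. The number of nuclei, 73 on the smallest side, limits the precision of the white values.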
